A study of Mus musculus with 6 samples.

Results

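The 10 genes described here act in the storage of fat in lipid droplets and in the uptake of fatty acids: Plin2, Plin3, Hilpda, Pnpla2, Dgat1, Dgat2, Lpl, Cd36, Fabp3 and Fabp4. They were chosen by name, as Plin2 and a list of genes for lipid droplets, triglycerides and fatty acid uptake, out of 47643 gene identifiers in the count files. Their levels were read in CD45-EPCAM+ tumor cells, sorted by FACS from 6 breast tumors of MMTV-PyMT mice. By the study's methods the gate also left out cells with CD31 or PDGFRα, so immune, endothelial and many stromal cells should be removed. In this strain, FVB/N-Tg (MMTV-PyVT)634Mul/J, the mammary tumor virus promoter drives a viral oncogene in the mammary epithelium. All 6 tumors, numbered 1 to 6 as in the labels, came from mice given B20-4.1.1, an antibody that blocks VEGF-A, at 5 mg/kg 2 times per week for 6 weeks, from 7 weeks of age. The study sorts such treated tumors into classes of lower and higher hypoxia, but the labels do not give the class of a sample, and untreated tumors were not analysed here. No group of tumors was therefore compared with another: the values are given tumor by tumor and against a continuous measure of hypoxia. The p-values measure only the spread between these 6 samples.

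Lipid droplets are the stores in which a cell keeps triglycerides, and perilipins coat their surface. Triglycerides are made in the last step by the enzymes DGAT1 and DGAT2, and are cut again by ATGL, the product of Pnpla2, which the small protein HILPDA inhibits. Fatty acids reach the cell from the blood after lipoprotein lipase, the product of Lpl, cuts lipoproteins, cross the membrane with the help of CD36, and are carried inside by fatty acid binding proteins. In mammary epithelium the same droplets, wrapped in membrane, become the fat globules of milk, and hypoxic cells of many kinds take up fatty acids and fill with droplets.

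The libraries were 3′ libraries, which read near the polyadenylated end of each transcript. Counts on genes ranged from 2509482 in tumor 2 to 5893246 in tumor 1. Levels are given as CPM, counts scaled to the library's total on genes. A level of 3 counts, used as the floor of detection, lay between 0.509 and 1.195 CPM. Of the 10 genes, 7 passed a filter on low counts that kept 12088 genes, and Cd36, Fabp3 and Fabp4 did not. Levels of different genes are compared as TPM, which divides by the joined length of all exons of a gene (union exon length), and by CPM. Reads of a 3′ library do not grow in number with length, so the order by CPM is the more direct one. Tumor 1 had a library unlike the rest: its median correlation with the other libraries was 0.788 on the log2 scale, against 0.905 to 0.939 for the other 5. Results that rest on it are given with and without it.

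Markers of other cell types that use these genes were low, apart from tumor 3. The 7 luminal epithelial markers, such as Krt8, Cldn3 and Epcam, summed to between 3957 and 4874 CPM. The 8 adipocyte markers summed to between 0.599 and 5.58 CPM, and 6 of them, including Adipoq, Lep and Plin1, the perilipin of fat cells, had at most 3 counts in every tumor. The 6 endothelial markers summed to between 1.59 and 4.12 CPM, with Cdh5, Tek, Emcn and Gpihbp1 at 3 counts or fewer in every tumor. The 5 fibroblast markers summed to between 14.6 and 23.8 CPM. For the 8 macrophage markers the sum was 231 CPM in tumor 3 and lay between 16.4 and 53.1 CPM elsewhere. In tumor 3 the 5 erythroid markers also summed to 864 CPM, against 5.66 to 69.4 CPM in the others. In bulk samples, fewer cells of a type and less RNA per cell cannot be told apart.

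Because hypoxia is the condition the study follows, the promoters of the genes are shown first. HIF, the transcription factor stabilised in hypoxia, binds hypoxia response elements whose core is ACGTG or GCGTG. RefSeq promoter windows of the build of the count files (GRCm38.p6), from 250 bases before to 50 bases after each start site, were matched for 6 of the 10 genes by symbol: Plin2, Plin3, Hilpda, Pnpla2, Cd36 and Fabp3. Dgat1, Dgat2, Lpl and Fabp4 were not matched. Both cores were searched on both strands. The Plin2 window (chr4:86670010-86670309, minus strand) and the window of the downstream Hilpda start site (chr6:29272376-29272675, plus strand) are printed because they held the most cores, and that of Pnpla2 (chr7:141454938-141455237, plus strand) because HILPDA acts on its product and the window held none. Capitals mark the cores, and each sequence reads 5′ to 3′ on the strand of the gene.
Plin2: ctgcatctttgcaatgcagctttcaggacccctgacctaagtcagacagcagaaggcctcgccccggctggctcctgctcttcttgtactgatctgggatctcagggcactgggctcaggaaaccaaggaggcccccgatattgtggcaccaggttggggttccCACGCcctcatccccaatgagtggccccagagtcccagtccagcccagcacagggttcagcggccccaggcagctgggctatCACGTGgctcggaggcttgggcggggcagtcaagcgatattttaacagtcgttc
Hilpda: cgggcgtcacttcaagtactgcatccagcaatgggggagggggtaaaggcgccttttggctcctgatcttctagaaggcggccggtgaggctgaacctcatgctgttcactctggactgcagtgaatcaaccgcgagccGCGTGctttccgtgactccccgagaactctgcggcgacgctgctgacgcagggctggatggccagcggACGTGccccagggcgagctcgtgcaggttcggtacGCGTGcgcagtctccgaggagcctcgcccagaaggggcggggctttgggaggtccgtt
Pnpla2: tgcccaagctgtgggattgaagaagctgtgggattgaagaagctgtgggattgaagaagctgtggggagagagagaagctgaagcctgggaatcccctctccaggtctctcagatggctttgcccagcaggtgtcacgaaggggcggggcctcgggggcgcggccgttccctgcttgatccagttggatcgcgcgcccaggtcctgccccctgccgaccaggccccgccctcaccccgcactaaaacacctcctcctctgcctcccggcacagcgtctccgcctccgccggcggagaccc

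Plin2 had a GCGTG core on the other strand that began 86 bases before the start site, read here as CACGC, and the palindrome CACGTG beginning 4 bases before it, which holds ACGTG on both strands and counts as 2 overlapping matches. The downstream Hilpda window had 3 cores on the gene strand, which began at -111, -43 and -8 from its start site. The window of the upstream Hilpda start site had 1 core, at +28, which is the same stretch of DNA as the first of those 3. No core was found in the windows of Plin3, Pnpla2, Cd36 and Fabp3. Of all 32851 RefSeq windows of this length, 43.8% held a core and 20.6% held 2 or more. A match of this kind is a description of the letters only.

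**Figure D1:**
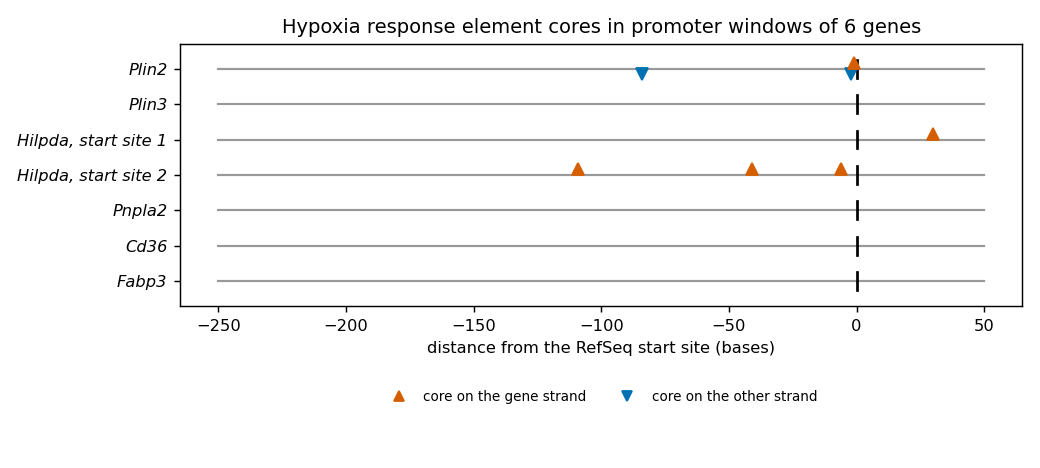
Positions of ACGTG and GCGTG cores in the RefSeq promoter windows of 6 of the genes, with the distance from the start site in bases on the x axis and 1 line per start site. Triangles pointing up mark cores on the strand of the gene and those pointing down cores on the other strand; Plin2 and Hilpda hold cores, and Plin3, Pnpla2, Cd36 and Fabp3 hold none.

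Plin2 varied more between tumors, for its abundance, than any other of the 7 genes described here that passed the filter. It encodes perilipin 2, the coat protein found on the droplets of most cells other than fat cells, and lies at chr4:86648386-86670060 (GRCm38, minus strand). Its level was 951, 513, 207, 537, 268 and 344 CPM for tumors 1 to 6 in that order. The highest tumor was 4.60-fold above the lowest, and 2.598-fold when tumor 1 was left out. Its biological coefficient of variation, edgeR's measure of the spread between samples beyond counting, was 0.455, against 0.3585 for genes of its abundance. This excess lay at percentile 89.6 of all genes past the filter, and between 78.3 and 92.8 when each tumor was left out in turn. No other of the 7 genes had a higher percentile with all 6 tumors.

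Plin3, at chr17:56277476-56292873 (minus strand), encodes perilipin 3, a cytosolic protein that moves onto small new droplets. It ranged from 85.3 CPM in tumor 2 to 215 CPM in tumor 1, with a median of 109.8. Tumor 1 was well above the rest, and the other 5 lay between 85.3 and 128 CPM. The ratio of Plin2 to Plin3 counts within a library, which does not depend on how libraries are scaled, ran from 1.69 in tumor 3 to 6.02 in tumor 2, with a mean log2 of 1.83 ± 0.63 (SD, n = 6). The low Plin2 level in tumor 3 was not shared by Plin3, whose 122 CPM there was above the median.

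With all 6 tumors, Hilpda varied least of the 7 genes past the filter. It lies at chr6:29272488-29275446 (plus strand), and its product is a droplet protein that inhibits ATGL and is induced by HIF in many cell types. Tumors 1 to 6 had 178, 78.5, 137, 139.5, 155 and 156 CPM in turn. All but tumor 2 lay within 137 to 178 CPM. Its percentile of dispersion, measured as for Plin2, was 43.7. It fell to 13.5 without tumor 2 and rose to 71.1 without tumor 1.

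Pnpla2, which encodes ATGL, the enzyme that removes the first fatty acid from a stored triglyceride, lies at chr7:141455198-141460743 (plus strand). It ranged from 71.1 CPM in tumor 5 to 193 CPM in tumor 1, with a median of 95.4. Without tumor 1 the remaining values, 71.1 to 106 CPM, spanned 1.49-fold. The ratio of Hilpda to Pnpla2 counts, inhibitor to enzyme, was lowest in tumors 2 and 1, at 0.842 and 0.921, and highest in tumor 5, at 2.18. Its mean log2 was 0.40 ± 0.52 (SD, n = 6), and 1.85 when both genes were divided by length. The ratio of Pnpla2 to Plin2 counts lay between 0.172 and 0.284 in 5 tumors and was 0.512 in tumor 3, the tumor lowest in Plin2.

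Of the enzymes that make triglycerides, Dgat1 was well counted and Dgat2 was near the floor. Dgat1, at chr15:76502015-76511953 (minus strand), stood at 67.7, 76.5, 49.0, 39.1, 27.6 and 34.2 CPM, taking tumors 1 to 6 in order. Tumors 1 and 2 were high and tumor 5 was lowest, 2.78-fold below tumor 2. Dgat2, at chr7:99153658-99182719 (minus strand), had between 3 counts in tumor 2 and 33 counts in tumor 1, or 1.195 to 5.60 CPM. In every tumor Dgat1 had more counts than Dgat2, by a ratio of 12.1 to 18.4 in 5 tumors and of 64.0 in tumor 2, where it rests on the 3 Dgat2 counts. The mean log2 ratio was 4.27 ± 0.87 (SD, n = 6) and 3.92 without tumor 2.

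Of the genes for uptake, Lpl was present at a low level and the other 3 were at or near the floor. Lpl, at chr8:68880491-68907448 (plus strand), encodes a secreted enzyme that works at the capillary wall. Tumors 3 and 4 were highest, with 35.2 and 32.8 CPM, and the other 4 lay between 12.8 and 17.8 CPM. Macrophages, which the CD45- gate should remove, also make lipoprotein lipase. The summed macrophage markers were highest in tumor 3, at 231 CPM, and lowest in tumor 4, at 16.4 CPM, so the 2 tumors high in Lpl were at opposite ends for these markers. The part of macrophage RNA in the Lpl level of tumor 3 was not tested.

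Cd36, at chr5:17781690-17888801 (minus strand), which encodes the fatty acid translocase, had 10 counts in all 6 tumors together. The counts were 1, 2, 4, 0, 0 and 3 in tumors 1 to 6, and the pooled level was 0.366 CPM (exact Poisson 95% interval 0.175 to 0.672). Fabp3, the heart-type binding protein, at chr4:130308595-130315463 (plus strand), had between 1 and 9 counts per tumor and a pooled level of 0.914 CPM (0.591 to 1.35). Its exons share 81 bases with Zcchc17 on the other strand, and 5.18% of the 50-base windows in its last 300 bases occur in another gene, so its few counts are uncertain. Fabp4, the adipocyte binding protein, at chr3:10204088-10208576 (minus strand), had 12 counts in all, 0.439 CPM (0.227 to 0.766), of which 8 were in tumor 3. That tumor had the highest macrophage markers, and macrophages also express Fabp4, although the CD45- gate should remove them. The endothelial and fibroblast sums were also highest in tumor 3, at 4.12 and 23.8 CPM. The adipocyte sum was 4.36 CPM there, below the 5.58 CPM of tumor 2. The part of any of these cells in the 8 counts was not tested. All intervals and floors cover counting error only.

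**Figure D2:**
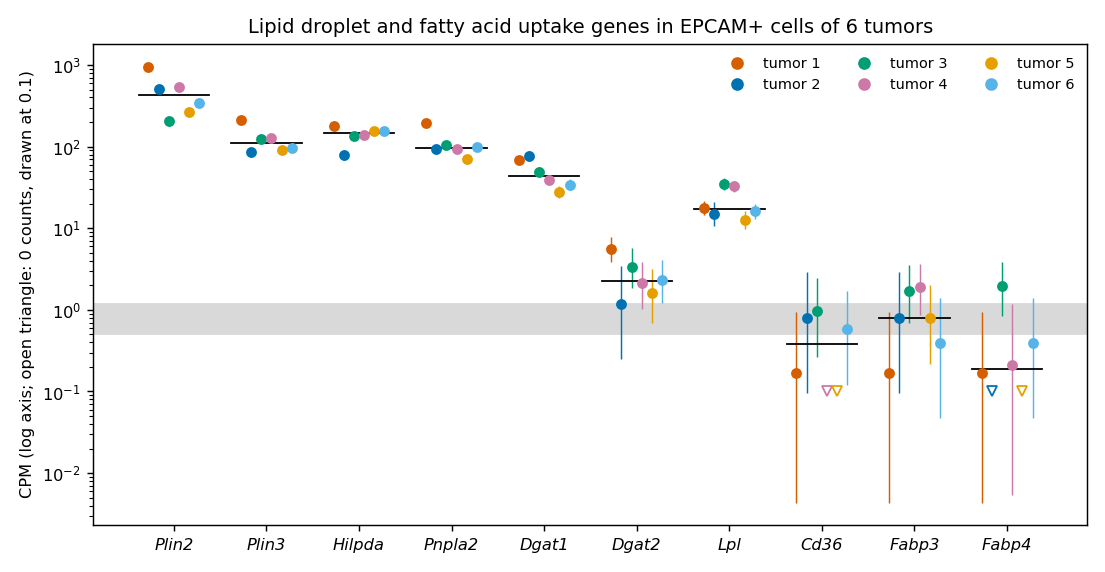
Level of each of the 10 genes in CPM (log axis) in the 6 tumors, with 1 point per tumor, its exact Poisson 95% interval, and the median as a black line. The grey band is the range of the floor of 3 counts; Cd36, Fabp3 and Fabp4 lie mostly at or under it, and Plin2 spans 207 to 951 CPM.

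The order of the genes depended on whether counts were divided by length, with which reads of a 3′ library do not grow. The division raises genes with short exons, such as Hilpda (1103 bases), against long ones, such as Lpl (10478 bases). Per union exon length, Hilpda and Plin2 led: the median was 341 TPM for Hilpda and 313 TPM for Plin2, and Hilpda was higher in 3 of the 6 tumors. Pnpla2 (80.9 TPM) and Plin3 (72.5 TPM) followed, with Pnpla2 higher in 4 of 6. Plin2 was above Pnpla2 in 6 of 6 tumors. Dgat1 came next, at a median of 37.1 TPM, below Plin3 in 5 of 6 tumors. Lpl was lower, at 4.08 TPM, and its range in TPM did not overlap that of Dgat1. Fabp3 (2.49 TPM) and Dgat2 (1.84 TPM) were not separated from each other, with Fabp3 higher in 4 of 6, and Cd36 and Fabp4, at 0.261 and 0.111 TPM, were both at or under 3 counts in 5 of 6 tumors. In CPM, without division by length, several places turned. Plin2 was above Hilpda in 6 of 6 tumors, by medians of 429 and 147 CPM and with ranges that did not overlap, Plin3 was above Pnpla2 in 4 of 6, and Dgat2 was above Fabp3 in 6 of 6. Dgat1 stayed above Lpl in 6 of 6 tumors, but by a ratio of medians of 2.59 and with ranges that overlapped.

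Set against the median of the other 5, each tumor had its own pattern, and tumor 1 was high in most of the droplet and triglyceride genes. On log2(TMM-scaled CPM + 1), tumor 1 was more than 1.5-fold above the others in 5 of the 7 genes past the filter: Plin2 (1.29), Dgat2 (1.06), Plin3 (0.96), Pnpla2 (0.95) and Dgat1 (0.76). In that library 25.3% of all 12088 genes were as far above and 28.2% as far below, and none of the 7 was below. Hilpda, at 0.34, and Lpl, at -0.04, did not take part.

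Tumor 2 was high in Dgat1 alone (1.03; 15.4% of all genes above) and low in Hilpda (-0.89) and Dgat2 (-0.67; 16.6% of all genes below). Tumor 3 was high in Lpl (0.90; 10.1%) and low in Plin2 (-1.43; 8.82%), the largest departure of any of the 7 genes in any tumor. In tumor 4, Lpl was high (0.86; 8.01% of all genes above) and none of the 7 was low (8.51%). In tumor 5, Plin2 (-1.004) and Dgat1 (-0.76) were low (10.3% of all genes) and none was high (12.9%). Tumor 6 had none of the 7 outside 1.5-fold in either direction, against 8.39% of all genes above and 9.54% below. These counts are descriptions without a test.

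**Figure D3:**
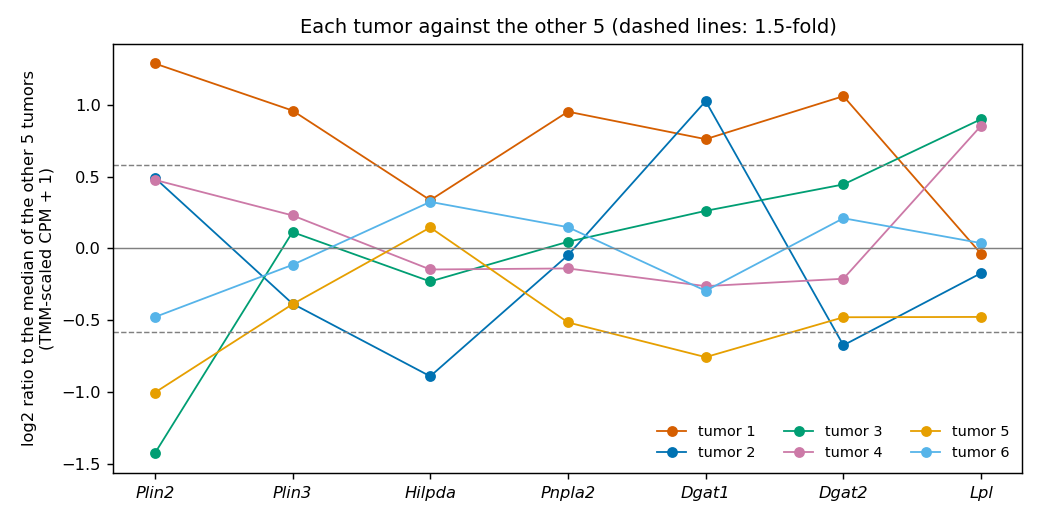
Log2 ratio of each tumor to the median of the other 5, on TMM-scaled CPM + 1, for the 7 genes past the filter on low counts, with 1 line per tumor and dashed lines at 1.5-fold. Tumor 1 lies above the upper line in 5 genes and tumor 3 lies lowest in Plin2, at -1.43.

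Whether the genes follow hypoxia was asked with a score, the mean TPM of Vegfa, Slc2a1 and Car9. They encode a vascular growth factor, a glucose transporter and a carbonic anhydrase that HIF induces. The study rates hypoxia in mouse tumors, and sorts treated ones into classes, by the area stained for pimonidazole. It uses a signature of these genes for patients, and reports higher scores in mouse tumors classed as more hypoxic. The labels give no stained area, so the score used here is a measure from RNA only. Tumors 1 to 6 scored 48.5, 37.2, 51.4, 76.6, 94.4 and 47.3 TPM in order, so that tumor 5 was highest and tumor 2 lowest. Tumor 1 had the lowest Vegfa (21.7 TPM) and Car9 (9.81 TPM) of the 6, and its score came mainly from Slc2a1 (114 TPM). With a geometric mean of these genes tumor 1 was lowest, at 28.96 TPM, followed by tumor 2 at 29.68 TPM. No slope of any of the 7 genes passed the test. The slopes of Hilpda and Lpl were above 0 and those of the other 5 below it. Of all 12085 genes tested 0 passed at an adjusted p of 0.05 (edgeR's quasi-likelihood test with Benjamini-Hochberg adjustment, 0.0%). At an unadjusted p of 0.05, 510 genes (4.22%) passed, of which 208 were lower with a higher score (1.72% of all genes). DESeq2 called 15 genes, none of them among the 7.

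Dgat1 had the smallest p of the 7. Its level changed by -0.99 on the log2 scale per doubling of the score (SE 0.35), with an unadjusted p of 0.0178 and an adjusted p of 0.954 by edgeR. The tumor with the lowest score, tumor 2, had the most Dgat1, and tumor 5, with the highest, the least. With the exact permutation test over 720 orders of the tumors, Pearson's r was -0.842 (unadjusted p = 0.0361, adjusted p = 0.968 over 12085 genes) and Spearman's rho was -0.657 (exact p = 0.175, adjusted p = 0.959). Without tumors 5 and 4, whose scores were farthest from the median, r was -0.680. The unadjusted p of the edgeR slope was 0.110 without tumor 2, 0.137 without tumor 5 and 0.0613 with the prefix of the sample identifier as a term. This prefix splits the tumors into 4 and 2. Within the 4 tumors that share one, r was -0.735 for Dgat1 and below 0 for all 7 genes, from -0.819 for Pnpla2 to -0.0489 for Lpl, a description over 4 tumors without a test that was added after the data were seen. Within the other 2 no correlation can be computed.

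Hilpda, described above as induced by HIF, had a slope of 0.26 (SE 0.40, adjusted p = 0.958 by edgeR) and an r of 0.413 (exact permutation p = 0.457, adjusted p = 0.968, rho 0.143, exact p = 0.803). Tumor 2 was lowest both in the score and in Hilpda. Without tumors 5 and 4 its r was 0.805, without tumor 2 it was -0.353, and within the 4 tumors of 1 prefix it was -0.804. The slope was -0.05 with the identifier prefix as a term. The slope was smaller than its SE and changed sign with these settings, so no direction is stated for Hilpda.

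For Plin2 the slope was -0.57 (SE 0.61, adjusted p = 0.954 by edgeR) and r was -0.314 (exact permutation p = 0.522, adjusted p = 0.971; rho -0.486, exact p = 0.356). Its highest level, in tumor 1, stood at a middle score, and its lowest, in tumor 3, at a neighbouring one, so that at scores of 48.5 and 51.4 TPM the level differed 4.60-fold. Without tumors 5 and 4, r was -0.343. The slope was -1.34 with the prefix as a term (adjusted p = 0.889 by edgeR).

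Pnpla2 had a slope of -0.59 (SE 0.43, adjusted p = 0.954 by edgeR) and an r of -0.546 (exact permutation p = 0.257, adjusted p = 0.968; rho -0.600, exact p = 0.242), which became 0.343 without tumors 5 and 4. The slopes of Dgat2 (-0.61, SE 0.78), Plin3 (-0.21, SE 0.46) and Lpl (0.11, SE 0.54) were each smaller than their errors. Their r values were -0.192, -0.142 and 0.00, with exact permutation p of 0.721, 0.818 and 0.994, all with an adjusted p of 0.984 or more. Spearman's rho was 0.0286 in size for each of these 3 genes, with an exact p of 1. Without tumors 5 and 4, r was 0.804 for Dgat2, 0.551 for Plin3 and 0.663 for Lpl, over 4 tumors. Tumors of both hypoxia classes are among the 6 by the study's design, and a difference between classes and a relation to the score cannot be told apart.

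**Figure D4:**
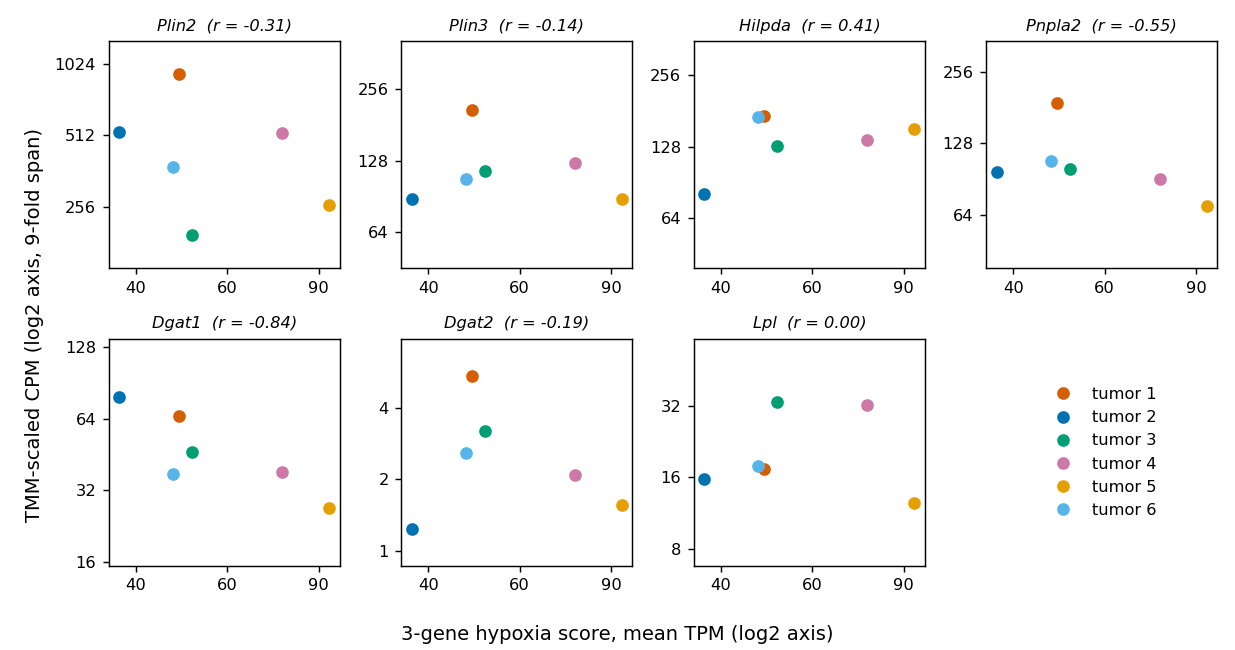
TMM-scaled CPM of the 7 genes (log2 axis, the same 9-fold span in each panel) against the 3-gene hypoxia score in mean TPM (log2 axis), with 1 point per tumor and Pearson's r above each panel. Dgat1 runs from the highest level at the lowest score to the lowest level at the highest score (r = -0.84), and tumors 1 and 3 lie far apart in Plin2 at nearly the same mean TPM.

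The wider pathway was read from 8 lists with 92 genes, of which 59 were tested, 22 had at most 3 counts in every tumor and 8 had no count. None passed the test on the score. At an unadjusted p of 0.05, 1 of the 59 was higher and 3 were lower with a higher score. Of all 12085 genes 302 were higher and 208 lower (4.22% together), so the list count is not read as particular to these genes. Slopes below 0 were found for 40 of the 59, against 53.2% of all 12085 genes. The median slope over the 59 was -0.20, against -0.04 over all genes. By count alone, the lists for droplet proteins (7 of 7), lipolysis (6 of 6) and milk fat globules (4 of 4) had every tested slope below 0, and the slopes of fatty acid uptake (3 of 9 below 0) and lipoprotein lipolysis and receptors (3 of 7) did not. Between 38 and 40 of the 59 slopes were below 0 under the 3 other scalings of the libraries, against 48.2 to 52.8% of all genes. These counts thus moved little with the scaling. They moved most with tumor 5, the tumor with the highest score, without which 33 of the 59 and 3 of the 6 lipolysis genes had slopes below 0, against 53.3% of all genes. Without tumor 1, 35 of the 59 slopes and 6 of the 7 droplet protein slopes were below 0, against 51.0% of all genes. Without tumor 6 it was 36 of the 59, against 52.0% of all genes.

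Among other droplet proteins, Plin1 and Cidec, which serve the large droplets of fat cells, had 3 and 2 counts in all, and Hsd17b13, a droplet protein of the liver, had none. The best counted were Aup1, a droplet protein of the ubiquitin pathway, at 117 to 236 CPM, Hsd17b11, a droplet dehydrogenase, at 82.5 to 146 CPM, and Bscl2, which encodes seipin, a protein of droplet assembly, at 36.9 to 104 CPM. Aup1 had a slope of -0.70 (SE 0.31, unadjusted p = 0.0471, adjusted p = 0.954 by edgeR). The median slope of the 7 tested was -0.70, and -0.32 without tumor 1 and -0.33 without tumor 5.

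In the lipolysis list 6 of 8 genes passed the filter, and the highest by mean CPM were Lipa, Abhd5 and Mgll. Abhd5, which encodes CGI-58, the activator of ATGL, ranged from 157 CPM in tumor 5 to 506 CPM in tumor 1. Mgll, for the lipase of the last step, ranged from 126 CPM in tumor 5 to 344 CPM in tumor 1, and Lipa, for the acid lipase of lysosomes, from 222 CPM in tumor 2 to 439 CPM in tumor 6. All 3 slopes were below 0 (-0.68, -0.84 and -0.31), with adjusted p of 0.954 or more by edgeR. G0s2, chosen after its values were seen because it encodes the other known inhibitor of ATGL, ran from 7.64 CPM in tumor 1 to 56.02 CPM in tumor 3. Tumor 1, the highest in Hilpda, Pnpla2 and Abhd5, was thus the lowest in G0s2.

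In triglyceride synthesis upstream of the DGAT step, Gpat4, for an enzyme of the first step, ranged from 109.5 to 266 CPM, Lpin1, for a phosphatidate phosphatase, from 54.9 to 84.9 CPM, and Agpat1, for an acyltransferase of the second step, from 29.9 to 64.1 CPM. Lpin1 spanned the least, and Gpat4 and Agpat1 were highest in tumor 1. Mogat2 had no count. The median slope of the 9 tested genes was -0.09, with 6 of 9 below 0, and without tumor 1 it was 0.10, with 3 of 9 below 0.

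Of the 18 other genes of fatty acid uptake and activation, 9 passed the filter and 8 had at most 3 counts in every tumor. Among the first, Acsl4 and Acsl3, which encode enzymes that activate fatty acids with coenzyme A, ranged from 245 to 563 CPM and from 43.6 to 174 CPM, both highest in tumor 4. Got2, a mitochondrial aminotransferase also described as a membrane fatty acid binding protein, reached 420 CPM in tumor 1 while the others lay between 126 and 167 CPM. Fabp5, the epidermal binding protein, named after its values were seen, was the binding protein with the most counts, at 8.99, 13.9, 28.6, 44.7, 41.5 and 24.99 CPM in order of tumors 1 to 6. It was high in the tumors of high score and low in tumors 1 and 2, with a slope of 1.24 (SE 0.47, unadjusted p = 0.0260, adjusted p = 0.954 by edgeR). Of the 50-base windows in its last 300 bases, 3.98% occur in other genes. Fabp1 and Fabp2, of liver and gut, had no count. The median slope of the 9 tested genes was 0.15, 0.30 without tumor 1 and -0.04 without tumor 2.

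Around Lpl, Gpihbp1, the endothelial anchor of the enzyme, had 1 count in the 6 tumors, and Apoc2, its activator, and Angptl8 and Apoc3, its inhibitors, had none. Another inhibitor of the enzyme, Angptl4, was present at 14.5 CPM in tumor 3 to 74.8 CPM in tumor 1. Gpihbp1 and Angptl4 are named outside the rule for names, with their values known. Vldlr, which encodes a lipoprotein receptor, ranged from 34.3 to 114 CPM, and Lmf1, needed for the enzyme to mature, reached 119.8 CPM in tumor 1 while the others lay between 46.3 and 62.1 CPM.

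The genes of the milk fat globule were well counted, and Plin2 coats the droplets that these proteins enclose. Mfge8, which encodes lactadherin, reached 14609 CPM in tumor 1 while the others lay between 3561 and 6128 CPM, Xdh, for xanthine dehydrogenase, ranged from 89.2 CPM in tumor 3 to 280 CPM in tumor 1, and Btn1a1, for butyrophilin, from 31.7 CPM in tumor 5 to 118 CPM in tumor 2. Xdh and Plin2 were both lowest in tumor 3 and highest in tumor 1. Btn1a1 had a slope of -1.14 (SE 0.41, unadjusted p = 0.0202, adjusted p = 0.954 by edgeR), and Muc1, the membrane mucin, named for its unadjusted p, had one of -1.02 (SE 0.43, unadjusted p = 0.0399, adjusted p = 0.954). The median slope of the 4 was -0.92. The 7 milk protein genes summed to between 6161 and 9746 CPM.

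Among transcription factors that control these genes, Hif1a ranged from 82.9 to 147 CPM, Srebf1, a driver of fat synthesis, from 25.1 to 119 CPM, and Rxra, the partner of the PPARs, from 32.9 to 73.1 CPM. Pparg, the PPAR of fat cells, named after its values were seen, had 2 counts in all. In fatty acid oxidation, Hadha and Acadl, for mitochondrial enzymes, ranged from 171 to 286 CPM and from 117 to 199.5 CPM, and Acadm from 43.3 to 83.6 CPM. Cpt1b, the muscle form of the carnitine transferase, had no count. The median slopes were -0.10 for the 7 factors tested, which became 0.07 without tumor 5, and -0.12 for the 10 oxidation genes tested, which became 0.05 without tumor 2.

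**Figure D5:**
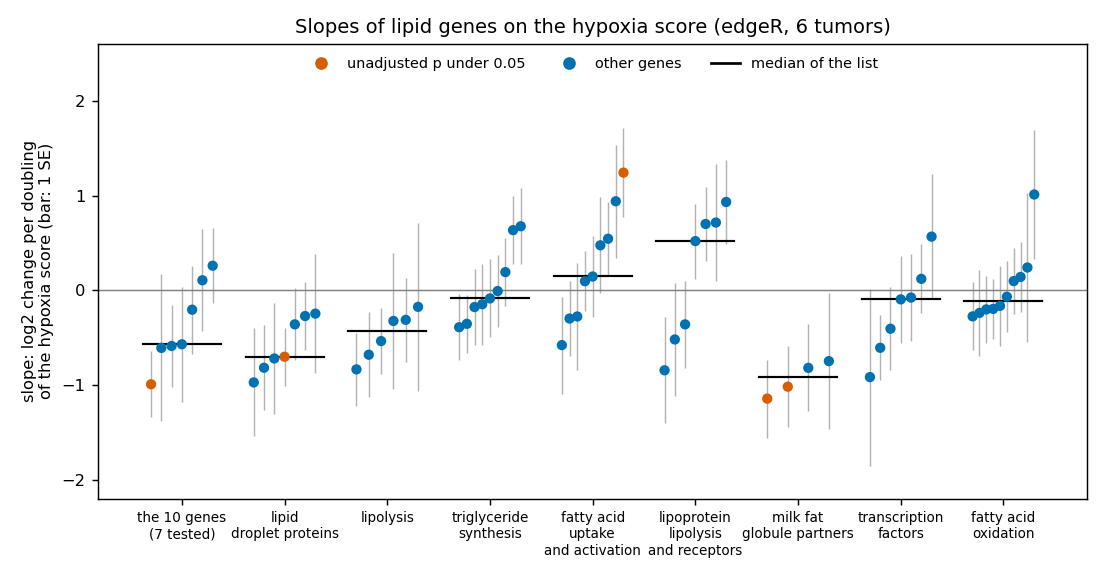
Slope of each tested gene on the hypoxia score (log2 change per doubling of the score, with 1 SE), by list, with the list's median as a black line; orange points had an unadjusted p under 0.05. Every tested gene of the droplet protein, lipolysis and milk fat globule lists lies below 0 with all 6 tumors (3 of 6 lipolysis genes without tumor 5), and none of the slopes passed after adjustment over all 12085 genes.

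The likeness of Plin2 to the other 6 genes past the filter over the 6 tumors ranged widely, and none passed the test. Its r with Hilpda was 0.05 on log2(TMM-scaled CPM + 1), with Pnpla2 0.70 and with Plin3 0.63 (exact permutation p of 0.929, 0.110 and 0.174; rho of 0.257, 0.371 and 0.429). Its r was 0.58 with Dgat1, 0.33 with Dgat2 and -0.20 with Lpl (exact permutation p of 0.224, 0.517 and 0.672; rho of 0.60, 0.0286 and -0.314). Without tumor 1 the first 3 were -0.39, 0.20 and -0.01 and the last 3 were 0.42, -0.56 and -0.10. Of the genes averaging 10 CPM or more, the 5 most like Plin2 were Scfd2 (r = 0.991), Wif1, a secreted inhibitor of Wnt (0.986), Fbxo28, an F-box protein (0.986), Mb, which encodes myoglobin (0.976), and Nudt12, an enzyme that cuts NADH (0.974). Their r was between 0.895 and 0.990 without tumors 1 and 3, which were farthest from the median of Plin2. An r over 0.9 was reached by 106 of 12087 genes (0.877%), and by 278 without tumor 1. The 5 most like Hilpda were 1700123O20Rik (r = 0.996), Rps28, a ribosomal protein gene (0.995), Pdia6, for a disulfide isomerase (0.993), Ube2h, for a ubiquitin-conjugating enzyme (0.991), and Elavl1, for an RNA binding protein (0.989). Their r was between 0.928 and 0.976 without tumors 2 and 1. For Hilpda 218 genes (1.8%) had an r over 0.9, and 635 without tumor 1. With 720 orders the smallest possible p is 0.00139, and the smallest adjusted p was 0.317 for likeness to Plin2 and 0.336 for likeness to Hilpda, so no gene passed after adjustment by the exact permutation test.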

How the data were processed

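Libraries were made with a QuantSeq 3′ kit with molecular identifiers of 6 bases. Per the submitters' notes and the paper's methods, the authors aligned reads to GRCm38 with STAR 2.5 and counted them with HTSeq. The deposited tables hold raw counts, with no normalization. Whether identifiers were collapsed, whether counting used strand, and the annotation release are not given in the sources used here. Of the reads, 16.1 to 41.4% fell in the 5 lines that name no gene and were left out. Of 47643 identifiers, 47224 matched GENCODE M21, which gave symbols and union exon lengths for TPM.

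The 10 genes and all lists were chosen with earlier results of these data known. Counts were scaled to CPM. The relation to log2 of the score was fitted with edgeR 4.0.16 (R 4.3.3; TMM, filterByExpr set to at least 10 counts, 15 in total and 3 samples, quasi-likelihood test, two-sided, Benjamini-Hochberg adjustment over 12085 genes, the 3 score genes left out). Tested on simulated data of 11820 genes, the fit recovered 33.5% of 200 genes with a slope of 2 in either direction, and 4.29% of its 70 calls were false. Correlations used log2(TMM-scaled CPM + 1) and exact permutation tests over 720 orders, two-sided, in Python 3.11.15 with scipy 1.17.1. Named from the lists were genes past the test and otherwise up to 3 with the highest mean per list and those with no count; exceptions are marked, and 1 gene that this rule names is not reported here. Likeness was computed over all genes past the filter, and named genes average 10 CPM or more. Alternatives were DESeq2 1.42.0, other scalings, scores, pseudocounts and filters, the identifier prefix as a term, each tumor left out and, added after the data were seen, the 4 tumors of 1 prefix alone. No 2 libraries agreed within sampling noise, and no sample was left out.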

Additional observations from a re-analysis of the deposited data

Results flagged for a closer look

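Tumors were marked as standing apart when the distance to the next tumor, as a share of the whole range, was above Dixon's 95% critical value for 6 samples. The nominal rate is about 1 in 20, or 2.55 of the 51 measures examined here. Found were 12, of which 7 were in tumor 1, the library that stood apart, and 3 in tumor 3. The measures are not independent, some were chosen with their values known, and the share over all genes was not computed. The 12 are therefore not read as an excess particular to these genes. Among the 10 genes, Plin3 was singled out in tumor 1 (gap 0.671 of the range; 215 CPM against 85.3 to 128), Pnpla2 in tumor 1 (0.717; 193 CPM against 71.1 to 106) and Fabp4 in tumor 3 (0.799; 8 counts against 0 to 2). The log2 ratio of Dgat1 to Dgat2 counts was singled out in tumor 2 (0.748; 6 against 3.596 to 4.20), where Dgat2 had 3 counts.

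Of the other genes named, Gpat4 (0.641), Agpat1 (0.778), Got2 (0.862), Lmf1 (0.785) and Mfge8 (0.768) were each highest in tumor 1. Gpihbp1 had a gap of 1 because its single count fell in tumor 6. The summed macrophage markers (0.829) and erythroid markers (0.926) were singled out in tumor 3.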

How the results depend on the processing

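No paired analysis was possible because the labels put all 6 tumors in 1 group. No gene passed the test on the score, and this count became 15 with DESeq2 (13 higher, 2 lower), 10 without the filter on low counts, and between 0 and 2 with each tumor left out, the 2 being without tumor 1; none of these calls was among the 10 genes. The other 6 settings (RLE size factors, library totals, an adjusted p of 0.1, a score from CPM, a geometric mean score and the identifier prefix as a term) gave 0. The slope of Hilpda was -0.0493 with the prefix as a term and 0.056 with the geometric mean score. With that score the slopes of Plin2, Pnpla2 and Dgat1 were -0.63, -0.60 and -0.78, with adjusted p between 0.667 and 0.709 by edgeR. With each tumor left out, slopes ran from -0.12 to 0.43 for Hilpda, from -0.58 to 0.31 for Plin3, from -1.27 to 0.0296 for Dgat2 and from -0.40 to 1.07 for Lpl, which all changed sign, and from -1.09 to -0.79 for Dgat1, from -0.89 to -0.08 for Plin2 and from -0.91 to -0.27 for Pnpla2, which did not. Correlations with the score ran from -0.353 to 0.577 for Hilpda, from -0.537 to 0.285 for Plin3, from -0.782 to 0.149 for Dgat2, from -0.342 to 0.768 for Lpl and from -0.964 to -0.704 for Dgat1. Within the 4 tumors of 1 identifier prefix, r was -0.804 for Hilpda and -0.0489 for Lpl, which changed sign. It stayed below 0 for the other 5. This alternative was added after the data were seen, and the share of all genes below 0 was not computed for it. Median levels of the 10 genes stayed within 1 SD in all 80 recomputations. That limit is wide and hard to exceed: the median of Plin2 ran from 344 to 513 CPM with each tumor left out, against an SD of 269.8 CPM. Of 28 recomputed ratios 1 moved by more, that of Hilpda to Pnpla2 per length. The simulated recovery of 33.5% at a slope of 2 limits what a count of 0 can show in 6 tumors, and Cd36, Fabp3 and Fabp4, with at most 9 counts a tumor, did not pass the filter on low counts.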
